A study of Mus musculus with 12 samples.

Results

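The subunits and inhibitors of NF-κB were examined as a set of 10 genes taken by name from 55414 gene records, and all 10 had enough counts to be tested. RNA had been sequenced from CD4+ T cells of the spleen of male BALB/c mice aged 18 weeks, in 12 libraries of 4 groups with 3 libraries each. In the LIP group (ligature-induced periodontitis) a silk thread had been tied around the maxillary second molars, whereas the CTL mice had been anesthetized without a ligature. Day 0 cells were taken without culture, and day 2 cells after culture in both groups with IL-2 (10 ng/mL), anti-TCRβ antibody (1 µg/mL) and anti-CD28 antibody (1 µg/mL), as the labels give them. The methods of the study give other concentrations of IL-2 and anti-TCRβ antibody, and the treatment labels of CTL 93 and LIP 96 on day 2 name anti-CD29 while those of CTL 97 and LIP 97 on day 2 name anti-CD30. The cells had been enriched by negative selection with beads, so the libraries stand for a bulk population of CD4+ cells of mixed subsets.

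NF-κB is a family of dimeric transcription factors that is held in the cytoplasm by IκB proteins in resting T cells. Engagement of the antigen receptor and CD28 activates the IκB kinase complex through BCL10 and MALT1, which leads to degradation of the IκB proteins and entry of the dimers into the nucleus. Several of its inhibitors are themselves transcribed in response to NF-κB, which gives the pathway its negative feedback, and in T cells the pathway is known for its part in activation, survival and cytokine production.

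The genes were grouped by role, with positions on mouse build GRCm39. The 4 subunits were Nfkb1 (chr3:135290264-135397742), which encodes the precursor of a DNA-binding subunit of the canonical dimers, Nfkb2 (chr19:46292759-46303812), the precursor of the non-canonical route, Rel (chr11:23686847-23721264), the c-Rel subunit prominent in lymphocytes, and Relb (chr7:19339017-19363425), the partner of the processed Nfkb2 product. The classical inhibitors, which retain the dimers in the cytoplasm, were Nfkbia (IκBα, chr12:55535332-55539432), Nfkbib (IκBβ, chr7:28457486-28466937) and Nfkbie (IκBε, chr17:45866585-45874661). The atypical nuclear IκB proteins were Nfkbid (chr7:30121150-30128171) and Nfkbiz (chr16:55631738-55659262), which act on NF-κB bound at promoters. Tnfaip3 (chr10:18874201-18891405) encodes a ubiquitin-editing enzyme that terminates signalling upstream of the kinase complex.

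The 300 bases upstream of the annotated start of each gene's canonical transcript (Ensembl) were read from GRCm39 and searched on both strands for the κB consensus, the 10-base sequence that NF-κB dimers bind. The consensus occurred in the windows of 5 of the 10 genes, namely Rel, Relb, Nfkbia, Nfkbie and Tnfaip3, and in 8.61% of the 15396 windows of the same length over the genes tested. A match is only a description of the letters. The windows of the inhibitors Nfkbia and Nfkbie and of the subunit Relb are shown as examples, written 5′ to 3′ on the strand of the gene with κB matches in capitals.
Nfkbia: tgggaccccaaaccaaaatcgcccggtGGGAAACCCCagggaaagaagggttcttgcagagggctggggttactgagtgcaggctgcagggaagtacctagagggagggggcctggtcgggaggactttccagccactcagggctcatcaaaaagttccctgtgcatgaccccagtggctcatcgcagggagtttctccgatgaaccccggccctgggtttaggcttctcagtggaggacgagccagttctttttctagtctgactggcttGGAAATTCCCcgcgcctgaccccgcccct
Relb: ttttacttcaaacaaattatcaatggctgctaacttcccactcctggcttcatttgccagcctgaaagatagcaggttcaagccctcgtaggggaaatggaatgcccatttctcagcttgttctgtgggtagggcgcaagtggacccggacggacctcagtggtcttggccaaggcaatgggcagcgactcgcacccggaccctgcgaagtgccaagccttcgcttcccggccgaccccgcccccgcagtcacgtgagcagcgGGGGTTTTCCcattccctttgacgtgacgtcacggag
Nfkbie: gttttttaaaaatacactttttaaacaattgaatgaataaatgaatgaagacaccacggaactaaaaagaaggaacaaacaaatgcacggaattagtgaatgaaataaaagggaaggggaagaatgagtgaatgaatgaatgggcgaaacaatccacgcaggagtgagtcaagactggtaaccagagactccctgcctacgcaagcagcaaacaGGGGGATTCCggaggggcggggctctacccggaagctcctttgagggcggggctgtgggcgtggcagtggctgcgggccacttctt

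These windows lie at chr12:55539433-55539732 on the minus strand (Nfkbia), chr7:19363424-19363723 on the minus strand (Relb) and chr17:45866306-45866605 on the plus strand (Nfkbie). The Nfkbia window held matches at positions -273 to -264 and -29 to -20, counted from the transcript start, whose first upstream base is -1. The Relb match lay at -37 to -28 and the Nfkbie match at -86 to -77. The match of Tnfaip3, GGGACACCCC, lay at -97 to -88 and that of Rel, GGGGGTCCCC, at -276 to -267.

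Each library held between 6249018 and 7845676 counts on day 0 and between 8691699 and 12866718 on day 2, and the members were counted at 97 to 9023 per library, so that none was near the limit of 3 counts. The labels do not say whether the libraries came from separate mice, so the p-values measure the spread between these libraries. Markers of T cells summed to 2483 to 4404 CPM (counts scaled to a common library size after TMM normalization) per library, and Cd4 lay between 422 and 645 CPM. The 10 markers of myeloid cells summed to at most 12.4 CPM and the 5 of NK cells to at most 14.2, while the 10 markers of B cells ranged from 4.21 to 52.5. In each comparison of LIP with CTL, leaving out 1 library raised the number of genes called the most. This was CTL 94 on day 0 and LIP 90 on day 2. The values without that library are given beside each result that it decides. Other libraries stood out in single members, such as CTL 88 in Nfkbia on day 0 (118 CPM) and CTL 97 in Nfkb1 on day 2 (595 CPM).

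Expression is given in CPM, with mean ± SD of n = 3 libraries. Levels of different genes were compared as CPM per kb of the canonical transcript. In the CTL group on day 0, Tnfaip3 had the highest mean level at 76.0 ± 48.8 CPM per kb, followed by Nfkbia at 61.1 ± 11.7, Nfkb1 at 53.5 ± 1.77 and Nfkbiz at 38.1 ± 13.5. The libraries of Tnfaip3 spanned 23.9 to 121 CPM per kb and overlapped with those of all the other three, and Nfkbia overlapped with Nfkb1, while Nfkb1 lay above Nfkbiz in every library on this scale. Nfkbie, Nfkbid, Rel and Nfkbib formed a group of overlapping levels with means from 11.9 to 14.6 CPM per kb, and Nfkb2 (6.18 ± 0.55) and Relb (5.38 ± 0.83) were lowest and overlapped with each other. In the LIP group on day 0, Nfkb1 (51.5 ± 1.45 CPM per kb) and Nfkbia (51.0 ± 5.35) were highest and overlapped, and Nfkbiz (23.7 ± 1.44) and Tnfaip3 (20.2 ± 6.07) followed.

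On day 2, Nfkb1 ranked first in both groups, with 159 ± 28.0 CPM per kb in CTL and 160 ± 17.3 in LIP, and lay above Nfkbia in all 6 libraries. Nfkbia was second in both groups, with 67.1 ± 1.12 CPM per kb in CTL and 79.8 ± 13.3 in LIP, and Nfkb2 came next, with 31.8 ± 1.60 and 40.7 ± 8.33. Nfkb2 overlapped with Rel in CTL and not in LIP. Nfkbid, a gene of an atypical nuclear IκB protein, was lowest in both groups, at 9.63 ± 1.28 CPM per kb in CTL and 7.97 ± 1.85 in LIP. The order depended on the length used, as the exon union of Nfkb1 (12848 bases) is much longer than its canonical transcript (4704 bases). With lengths of the exon union, Nfkbia ranked above Nfkb1 in both LIP groups, Nfkbiz (27.5 CPM per kb) above Nfkb1 (19.6) in CTL on day 0, and Rel (28.6) above Nfkb2 (27.2) in CTL on day 2, and several lower ranks also changed.

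**Figure D1:**
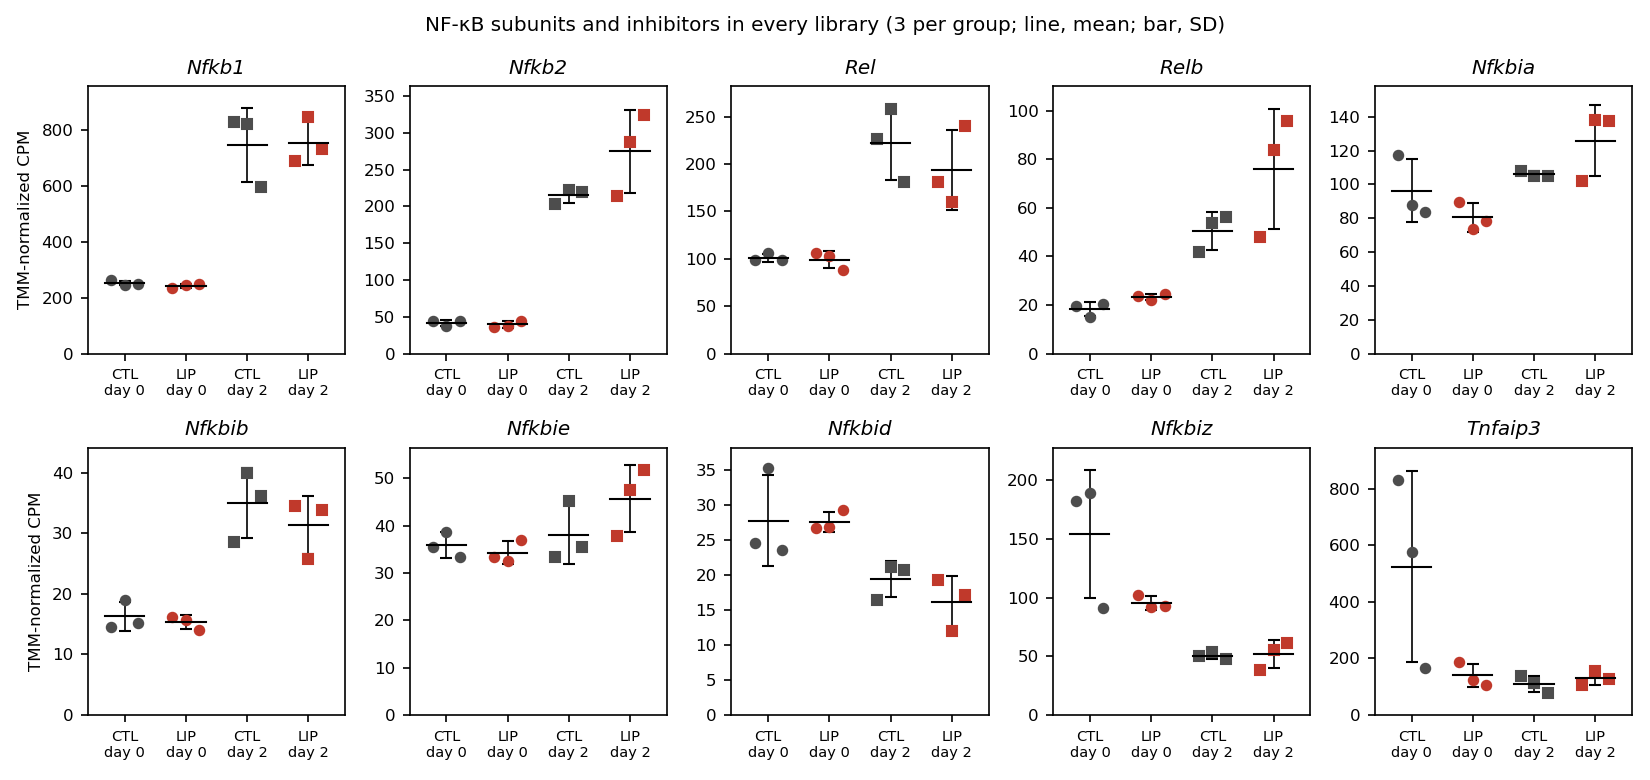
TMM-normalized CPM (vertical axes, each from 0) of the 10 genes in every library of CTL and LIP on day 0 (circles) and day 2 (squares), with lines for the mean and bars for the SD of 3 libraries. Nfkb1, Nfkb2, Rel, Relb and Nfkbib lie higher on day 2 than on day 0 in all libraries, Nfkbid and Nfkbiz lie lower, and Tnfaip3 reaches 833 and 577 CPM in only 2 of the 3 CTL libraries of day 0.

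The comparison of day 2 with day 0 shows the members before and after culture with stimulation, which cannot be told apart from culture alone in this design. In bulk RNA, likewise, fewer cells of a type and less RNA per cell cannot be told apart. In CTL, 5 members rose and 3 fell at an adjusted p under 0.05, and in LIP 7 rose and 2 fell. This stands against 69.0% of all 15475 genes tested in CTL (35.3% higher, 33.7% lower) and 71.8% in LIP (36.6% higher, 35.2% lower), so being called does not by itself set the members apart. The median log2 fold change of the members was 0.62 in CTL and 0.80 in LIP, beside -0.022 and -0.0028 over all genes. Markers of other cells moved between the days as well. In LIP, 4 of 9 B cell markers tested rose and 1 fell, with summed levels of 13.4 to 14.4 CPM on day 0 and 4.21 to 52.5 on day 2, and in CTL 1 rose and 1 fell, with 9.39 to 17.2 and 5.81 to 32.9. All 3 myeloid and all 3 NK markers tested fell in both groups, and their part and that of the B cell markers in the members' changes was not tested. Values below are listed by library number, in the order 88, 89 and 94 (CTL day 0), 92, 93 and 94 (LIP day 0), 92, 93 and 97 (CTL day 2) and 90, 96 and 97 (LIP day 2).

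All 4 subunits rose in both groups. Nfkb2 was counted at 43.7, 37.4 and 44.1 CPM in CTL on day 0 and at 202, 223 and 219 on day 2, and at 36.1, 37.7 and 44.8 CPM in LIP on day 0 and at 213, 288 and 324 on day 2. Its log2 fold change was 2.36 (SE 0.15, adjusted p = 1.37e-08, quasi-likelihood test of edgeR) in CTL and 2.80 (SE 0.15, adjusted p = 3.32e-09) in LIP, where it was the largest of the 10 genes in all fits tried. Nfkb1 was at 261, 246 and 249 CPM in CTL on day 0 and at 827, 819 and 595 on day 2, and at 235, 245 and 247 CPM in LIP on day 0 and at 687, 845 and 731 on day 2. Every library of day 2 lay above every library of day 0 in both genes, and Nfkb1 rose by 1.57 (SE 0.13, adjusted p = 1.41e-07) in CTL and 1.64 (SE 0.13, adjusted p = 8.82e-08) in LIP on the log2 scale.

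Relb, at 18.2 ± 2.80 CPM in CTL and 23.3 ± 1.21 in LIP on day 0, rose to 50.6 ± 7.74 and 75.9 ± 24.7 on day 2. Its log2 fold changes were 1.47 (SE 0.22, adjusted p = 4.75e-05) and 1.70 (SE 0.22, adjusted p = 9.86e-06). Rel was at 99.0, 106 and 98.5 CPM in CTL on day 0 and at 227, 258 and 181 on day 2, and at 106, 103 and 88.5 CPM in LIP on day 0 and at 181, 160 and 240.5 on day 2. The c-Rel transcript thus rose by 1.13 (SE 0.15, adjusted p = 2.02e-05) in CTL and by 0.97 (SE 0.15, adjusted p = 7.92e-05) in LIP on the log2 scale. Rela, the canonical partner that is not among the 10 genes, rose by 0.78 (SE 0.12) and 1.07 (SE 0.12).

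The makeup of the subunit transcripts was computed per kb of the canonical transcript over these 4 genes and Rela. Nfkb1 made up 51.5% ± 1.17 of them in CTL and 51.2% ± 0.78 in LIP on day 0, and 56.8% ± 4.01 and 54.0% ± 4.08 on day 2. The share of Nfkb2 went from 5.94% ± 0.50 to 11.5% ± 1.69 in CTL and from 5.81% ± 0.56 to 13.6% ± 1.48 in LIP, and its ranges on both days did not overlap. The share of Rela went from 24.9% ± 1.55 to 16.0% ± 1.28 in CTL and from 23.5% ± 0.80 to 16.6% ± 0.76 in LIP. The sum of the 5 subunits over the sum of the 3 classical inhibitors was 1.20 ± 0.14 in CTL and 1.33 ± 0.11 in LIP on day 0, and 2.58 ± 0.30 and 2.46 ± 0.10 on day 2, with all 6 libraries of day 2 above all 6 of day 0. These values depend on the length used. Per kb of the exon union, Nfkb1 made up 31.1% ± 1.061 of the subunit transcripts in CTL and 31.0% ± 0.67 in LIP on day 0, where Rela was highest at 34.1% ± 1.74 and 32.2% ± 1.16, and 36.0% ± 3.55 and 33.9% ± 3.56 on day 2. On that scale the share of Nfkb2 still went up, from 8.39% ± 0.77 to 17.0% ± 2.02 in CTL and from 8.21% ± 0.84 to 19.8% ± 1.55 in LIP, and the ratio to the classical inhibitors was 0.977 ± 0.13 and 1.09 ± 0.090 on day 0 and 2.04 ± 0.18 and 1.95 ± 0.028 on day 2. These are ratios of transcripts, and the amounts of protein were not measured here.

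**Figure D2:**
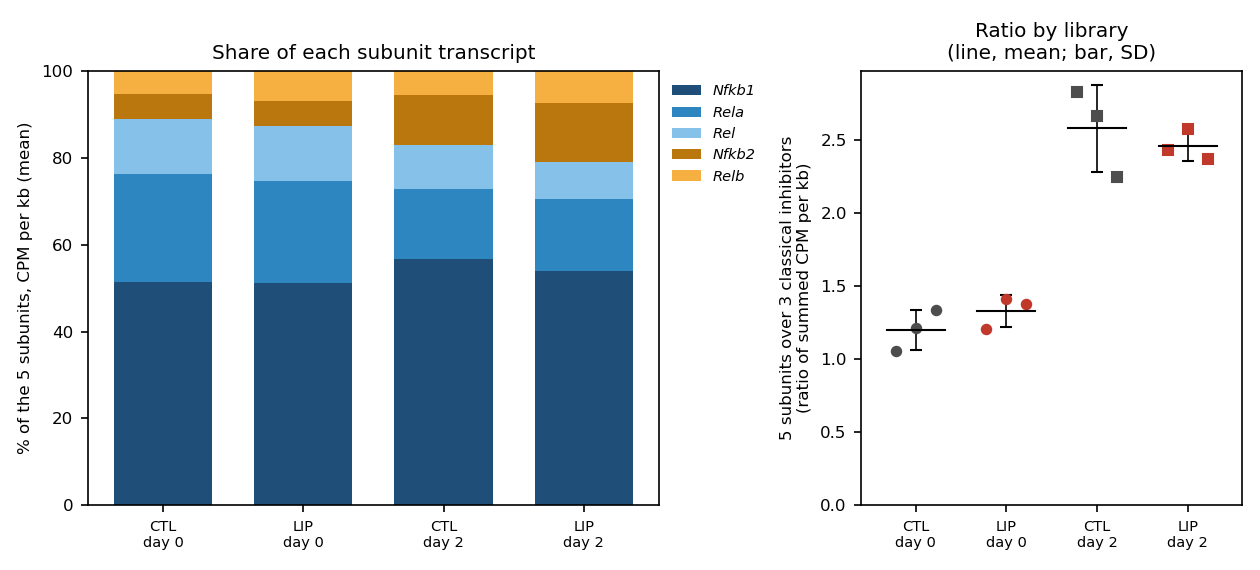
Left, mean share (%) of each of 5 subunit transcripts in their summed CPM per kb of the canonical transcript in each group; right, ratio of the summed subunits to the summed classical inhibitors Nfkbia, Nfkbib and Nfkbie in every library, with mean and SD of 3 libraries. The share of Nfkb2 is larger and that of Rela smaller on day 2, and the ratio is 1.056 to 1.41 on day 0 and 2.24 to 2.82 on day 2.

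The classical inhibitors did not move together. Nfkbib, the IκBβ gene, was at 14.6, 19.0 and 15.3 CPM in CTL on day 0 and at 28.6, 40.01 and 36.2 on day 2, and at 16.3, 15.6 and 14.0 CPM in LIP on day 0 and at 34.6, 25.8 and 33.8 on day 2. It rose in both groups, by 1.09 (SE 0.16, adjusted p = 4.03e-05) in CTL and 1.04 (SE 0.16, adjusted p = 6.62e-05) in LIP on the log2 scale. Nfkbia was at 118, 87.9 and 83.7 CPM in CTL on day 0 and at 108, 105 and 105 on day 2, and at 89.8, 73.4 and 78.2 CPM in LIP on day 0 and at 102, 138 and 138 on day 2. The days overlapped in CTL but were apart in LIP, and Nfkbia had a log2 fold change of 0.14 (95% interval -0.17 to 0.45, adjusted p = 0.411) in CTL and 0.64 (0.33 to 0.96, adjusted p = 0.0013) in LIP.

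Nfkbie was at 35.6, 38.8 and 33.4 CPM in CTL on day 0 and at 33.5, 45.3 and 35.5 on day 2, and at 33.3, 32.6 and 37.0 CPM in LIP on day 0 and at 37.9, 47.6 and 51.7 on day 2. Its log2 fold change was 0.084 (95% interval -0.22 to 0.39, adjusted p = 0.614) in CTL and 0.41 (0.10 to 0.72, adjusted p = 0.0189) in LIP. The rise of Nfkbie in LIP lost its call without LIP 92 or LIP 93 of day 0 or LIP 97 of day 2, with adjusted p of up to 0.0727 in these fits, and also with at least 10 counts required in every library (adjusted p = 0.057). With no normalization beyond library size, the median of all genes moved to -0.21 in CTL and -0.36 in LIP, and the values in LIP were 0.29 for Nfkbia (adjusted p = 0.089) and 0.051 for Nfkbie (adjusted p = 0.754), both above that median and not called, while those in CTL turned to -0.049 and -0.10.

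Both genes of the atypical nuclear IκB proteins fell in both groups. Nfkbiz was at 182, 189 and 91.3 CPM in CTL on day 0 and at 50.7, 53.7 and 47.4 on day 2, and at 103, 92.02 and 92.9 CPM in LIP on day 0 and at 38.8, 55.3 and 61.5 on day 2. It fell by 1.61 (SE 0.23, adjusted p = 3.02e-05) in CTL and by 0.89 (SE 0.23, adjusted p = 0.0032) in LIP on the log2 scale. Nfkbid was at 24.6, 35.3 and 23.5 CPM in CTL on day 0 and at 16.5, 21.1 and 20.8 on day 2, and at 26.7, 26.9 and 29.3 CPM in LIP on day 0 and at 19.3, 12.0 and 17.1 on day 2. It fell by 0.52 (SE 0.19, adjusted p = 0.025) in CTL, where the call was lost without CTL 89 of day 0 (adjusted p = 0.168) or CTL 92 of day 2 (adjusted p = 0.108), and by 0.78 (SE 0.19, adjusted p = 0.0023) in LIP.

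Tnfaip3 was at 833, 577 and 165 CPM in CTL on day 0 and at 136, 112 and 78.6 on day 2, and at 187, 125 and 108 CPM in LIP on day 0 and at 107, 156 and 126 on day 2. The first 2 CTL libraries of day 0 were far above the other 10, whose values lay between 78.6 and 187 CPM. The deubiquitinase gene fell by 2.27 (SE 0.43, adjusted p = 0.00035) in CTL, and in LIP its log2 fold change was -0.11 (95% interval -1.004 to 0.78, adjusted p = 0.819).

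**Figure D3:**
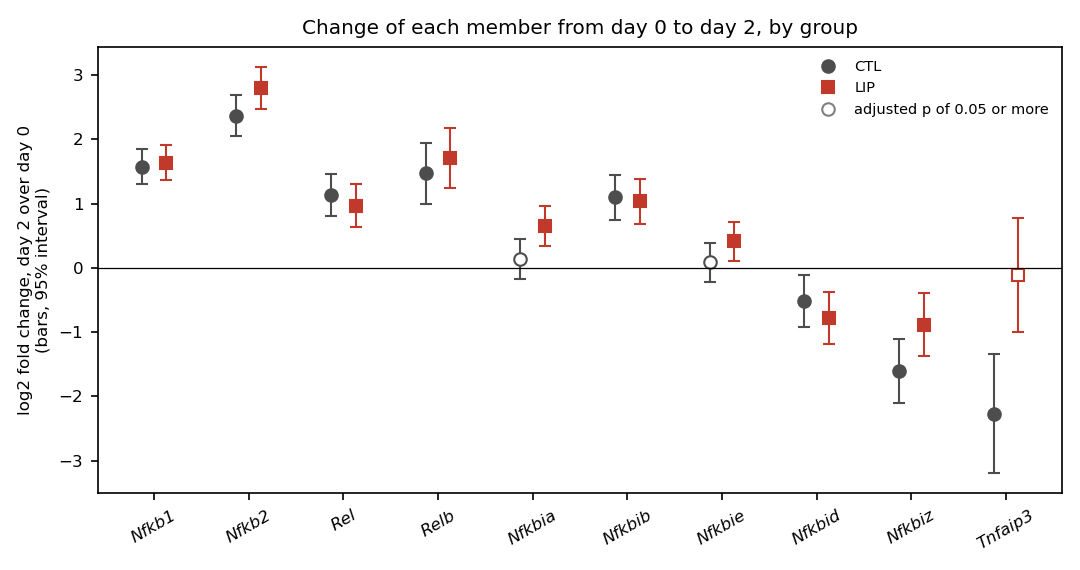
Log2 fold change of day 2 over day 0 (vertical axis) of each of the 10 genes in CTL (gray circles) and LIP (red squares), with 95% intervals from edgeR and open symbols for an adjusted p of 0.05 or more. The subunits and Nfkbib lie above 0 in both groups, Nfkbid and Nfkbiz lie below, and the widest gap between CTL and LIP is that of Tnfaip3, at -2.27 and -0.11.

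Whether the response differed between the groups was tested as an interaction, which equals the LIP effect on day 2 minus that on day 0. None of the 10 members passed an adjusted p under 0.05, against 0.0517% of all 15475 genes, and at an unadjusted p under 0.05 there were 3 members, all higher, against 8.65% of all genes in that direction. The difference was 2.16 on the log2 scale for Tnfaip3 (SE 0.59, unadjusted p = 0.00274, adjusted p = 0.112), 0.51 for Nfkbia (SE 0.20, unadjusted p = 0.027, adjusted p = 0.243) and 0.72 for Nfkbiz (SE 0.32, unadjusted p = 0.0416, adjusted p = 0.291). The difference of Nfkb2 was 0.43 (95% interval -0.00033 to 0.87). With any of DESeq2, RLE normalization or the stricter filter there was again no member called, with DESeq2 giving an adjusted p of 0.0599 for Tnfaip3. Without a filter on low counts, Tnfaip3 and Nfkbiz were called, among 514 genes higher and 301 lower of 28221.

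Single libraries decided these calls. Without LIP 90 of day 2, the interaction passed for Nfkb2 (adjusted p = 0.0228), Tnfaip3 (0.0275) and Nfkbia (0.031), and without CTL 94 of day 0 it passed for Tnfaip3 (0.0157). The fit without LIP 90 called 1596 of 15823 genes, against 8 of 15475 with all libraries. In the interaction, 9 of 17 immediate early genes and 8 of 11 heat shock genes tested were also higher at an unadjusted p under 0.05, and their part in the values of Tnfaip3, Nfkbia and Nfkbiz was not tested.

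The other genes of the pathway were followed in lists with a fixed membership, which do not hold any of the 10 genes. Of 10 genes for the IκB kinases and the kinases above them, 3 rose and 3 fell in CTL, and 4 rose and 3 fell in LIP. Map3k7, the kinase that phosphorylates the complex, went from 81.5 ± 3.14 to 233 ± 9.40 CPM in CTL, and Map3k14, the kinase of the non-canonical route, from 70.9 ± 11.4 to 112 ± 9.48. Ikbkb, a catalytic subunit of the complex, fell from 373 ± 42.5 to 125 ± 2.34 CPM, and the related kinase gene Ikbke from 301 ± 44.9 to 99.5 ± 2.56. The same 4 genes changed in the same directions in LIP, where the log2 fold changes were 0.73, 0.68, -1.62 and -1.98.

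In the route from the antigen receptor, Malt1, the protease and scaffold, rose by 1.78 in CTL and 1.40 in LIP on the log2 scale. Prkcq, a protein kinase C gene of T cells, fell by 0.75 and 0.54. Bcl10 rose in LIP by 0.57. Of 8 genes for TRAF, cIAP and RIPK adaptors, 2 rose and 3 fell in CTL and 2 rose and 2 fell in LIP, among them Traf6 (0.79 and 1.15), Birc3 (0.51 and 0.77), Traf5 (-2.41 and -2.01) and Birc2 (-1.23 and -0.50).

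Of 12 genes for linear ubiquitin, deubiquitinases and partners of Tnfaip3, 5 rose and 5 fell in CTL and 6 rose and 3 fell in LIP. Otud7b, a deubiquitinase gene of the same family as Tnfaip3, rose by 1.70 and 1.43 on the log2 scale, and Sharpin, of the linear ubiquitin complex, fell by 0.53 and 0.64. Among 28 textbook NF-κB target genes, 20 rose and 2 fell in CTL and 23 rose and 3 fell in LIP, with median log2 fold changes of 2.05 and 2.03 where the medians over all genes were -0.022 and -0.0028. Il2, the T cell growth factor, went from 0.774 ± 0.41 to 62.6 ± 6.84 CPM in CTL, and Irf4, a transcription factor of activated lymphocytes, from 29.7 ± 3.16 to 2173 ± 335 in LIP. Ltb and Ccl5 fell in both groups. Bcl3, the remaining nuclear member of the IκB family, rose by 1.48 (SE 0.22) in CTL and 1.60 (SE 0.21) in LIP.

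The comparison of LIP with CTL on day 0 asked whether the ligature was accompanied by a change in the uncultured cells. No member passed an adjusted p under 0.05, against 0.427% of the 14064 genes tested. At an unadjusted p under 0.05, 1 member was higher and 2 were lower, against 6.67% and 7.2% of all genes, and DESeq2, which gave Nfkbib no adjusted p, called no member either. Without a filter on low counts, Tnfaip3 and Nfkbiz were called, among 263 genes higher and 382 lower of 25644. Their adjusted p in that edgeR fit were 1.55e-106 and 3.07e-12, although the groups overlapped in both genes, so no weight is put on these calls. The median log2 fold change of the members was -0.065 beside 0.0088 over all genes. In 1 member, Relb, all LIP libraries were above all CTL libraries, as in 9.26% of all genes.

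The value of Tnfaip3 was the largest of the 10. With the library values above, CTL 94 lay within the range of the LIP libraries, and CTL 88 and 89 were above it. The log2 fold change of LIP over CTL was -1.90 (SE 0.42, unadjusted p = 0.000775, adjusted p = 0.0872), with means of 140 ± 42.0 CPM in LIP and 525 ± 337 in CTL. Without CTL 94 it was -2.33 with an adjusted p of 8.33e-06, and over the fits that left out 1 library it ranged from -1.41 to -2.33 with adjusted p up to 0.439. Nfkbiz had the same layout, with CTL 94 at 91.3 CPM just below the lowest LIP library at 92.02, and a log2 fold change of -0.68 (SE 0.20, unadjusted p = 0.00612, adjusted p = 0.174). Without CTL 94 it was -0.95 with an adjusted p of 9.15e-06, whereas the other fits that left out a library gave adjusted p up to 0.527. The fit without CTL 94 called 257 genes higher and 401 lower of 14343, against 8 and 52 of 14064 with all libraries. Both of these calls were thus made among many, without the CTL library nearest to LIP in these genes.

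A further pair of lists moved on day 0 and is given beside these values. The 17 immediate early genes, which are transcribed within minutes of a stimulus, summed to 2326, 2130 and 1498 CPM in CTL and to 1418, 1223 and 1280 in LIP, and CTL 94 was again next to the LIP libraries. Of the 15 that were tested, 3 fell at an adjusted p under 0.05 (Fosb, Fos and Jun, by 2.34, 1.89 and 1.28 on the log2 scale) and 10 were lower at an unadjusted p under 0.05. The 12 cytosolic heat shock genes summed to 3771, 3880 and 4039 CPM in CTL and to 1872, 1840 and 2001 in LIP, and here CTL 94 lay with the other CTL libraries. Of 10 heat shock genes tested 8 fell, with a median log2 fold change of -1.02. Among markers of other cells, the 10 myeloid markers summed to 4.97, 4.94 and 10.7 CPM in CTL and to 6.48, 9.99 and 12.4 in LIP, and the 5 NK markers to 9.04, 5.18 and 12.1 and to 10.3, 12.4 and 14.2. CTL 94 lay within the LIP range for both sums, in which S100a8, S100a9 and Klra8 were at 0 in all libraries of both groups. The part of any of these lists in the values of Tnfaip3 and Nfkbiz was not tested.

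Relb was at 19.4, 15.0 and 20.3 CPM in CTL and at 23.6, 21.9 and 24.3 in LIP on day 0. The groups did not overlap, with a log2 fold change of 0.36 (SE 0.13, unadjusted p = 0.019, adjusted p = 0.257). Nfkbia had a value of -0.25 (95% interval -0.52 to 0.019, adjusted p = 0.397). The other 6 members had log2 fold changes between -0.091 and -0.0082, and the 95% intervals of Nfkb1 (-0.19 to 0.095), Rel (-0.20 to 0.16) and Nfkbie (-0.27 to 0.15) were the narrowest. With no normalization beyond library size those of Nfkb1, Rel, Nfkbie and Nfkbid turned to between 0.0095 and 0.061.

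**Figure D4:**
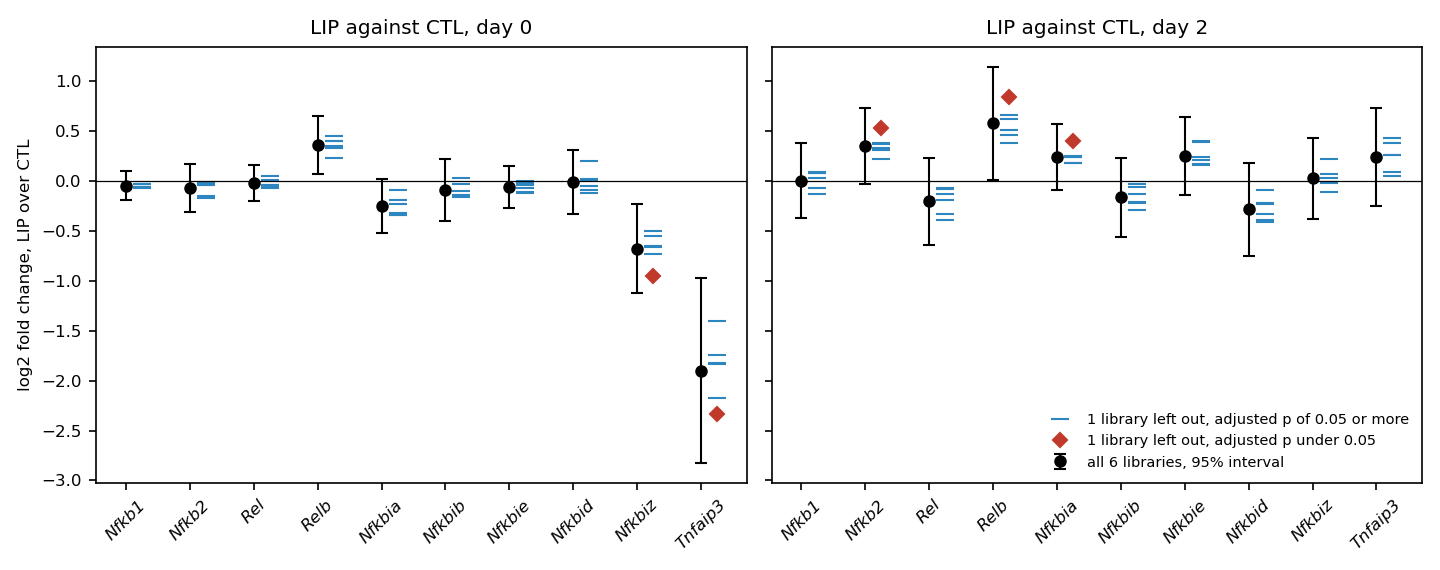
Log2 fold change of LIP over CTL (vertical axis) of the 10 genes, with day 0 in the left panel and day 2 in the right one, for all 6 libraries of a day (black points, 95% intervals from edgeR) and for each library left out in turn (blue dashes, or red diamonds for an adjusted p under 0.05). A red diamond stands at Nfkbiz (-0.95) and Tnfaip3 (-2.33) on day 0, both without CTL 94, and at Nfkb2 (0.53), Relb (0.85) and Nfkbia (0.40) on day 2, all without LIP 90.

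Around the members on day 0, Cd69, an early activation marker, was the textbook target that fell at an adjusted p under 0.05, from 300 ± 85.9 CPM in CTL to 160 ± 14.0 in LIP (log2 fold change -0.90, SE 0.16, adjusted p = 0.0375). Of the 21 targets tested, 5 were higher and 3 lower at an unadjusted p under 0.05. In the lists of kinases, of the receptor route, of adaptors and of ubiquitin genes, 0 of 34 genes passed the adjusted threshold, and 2 were higher and 6 lower at an unadjusted p under 0.05. Among them were Chuk (0.21), another catalytic kinase subunit, and Otud7b (0.31), both higher, and Bcl10 (-0.29) and Tnip1 (-0.17), which encodes a partner of Tnfaip3.

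On day 2, the comparison of LIP with CTL addressed the same question in the stimulated cells. No member passed an adjusted p under 0.05, and 0% of the 14041 genes tested did, although 16.5% had an unadjusted p under 0.05 (2322 genes) and DESeq2 called 485 genes, none of them among the 10. In all 10 members the groups overlapped, against 21.5% of all genes whose groups did not. The median log2 fold change of the members was 0.13 beside -0.0058 over all genes.

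Relb was the member with an unadjusted p under 0.05. It was at 41.7, 53.7 and 56.2 CPM in CTL and at 48.2, 84.0 and 95.6 in LIP, where LIP 90 lay within the CTL range and the other two above it. The log2 fold change was 0.58 (SE 0.25, unadjusted p = 0.0466, adjusted p = 0.295), and 0.85 without LIP 90 (adjusted p = 0.0062). Its partner Nfkb2 had a log2 fold change of 0.35 (SE 0.17, adjusted p = 0.34), and 0.53 without LIP 90 (adjusted p = 0.0134). Nfkbia showed the same arrangement, with LIP 90 at 102 CPM next to CTL libraries of 105 to 108 and LIP 96 and 97 both at 138. Its log2 fold change was 0.24 (SE 0.14, adjusted p = 0.436), and 0.40 without LIP 90 (adjusted p = 0.0262). Leaving out LIP 90 raised the number of genes called from 0 to 2014 of the genes tested, so these 3 calls were made among many.

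The 10 B cell markers summed to 5.81, 6.45 and 32.9 CPM in CTL 92, 93 and 97 and to 4.21, 52.5 and 49.9 in LIP 90, 96 and 97. None of the 10 was at 0 throughout a group, and in both this sum and Relb, LIP 90 was lowest of the LIP libraries and CTL 97 highest of the CTL libraries. For Nfkb2 and Nfkbia, LIP 90 was again lowest in LIP, but CTL 97 was not highest in CTL. It was at 219 CPM for Nfkb2, below CTL 93 at 223, and was the lowest CTL library for Nfkbia (104.7). LIP 90 was also the lowest LIP library for the markers of CD8 T cells (4.93, 13.2 and 9.20 CPM in LIP, 5.28, 6.33 and 4.43 in CTL), NK cells (1.34, 3.37 and 2.46 in LIP, 0.955 to 1.25 in CTL) and myeloid cells (1.34, 2.43 and 2.46 in LIP, 0.836 to 1.057 in CTL). Klra4, Klra8, S100a8, S100a9 and Clec9a were at 0 in all libraries of day 2. The negative selection is meant to remove these cells before culture. B cells also express Relb, Nfkb2 and Nfkbia. The 12 cytosolic heat shock genes summed to 5341, 5964 and 6138 CPM in CTL and to 7562, 6632 and 6707 in LIP, with LIP 90 highest. The median log2 fold change of the 11 heat shock genes tested was -0.22. The part of any of these cells or genes in the values of day 2 was not tested.

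**Figure D5:**
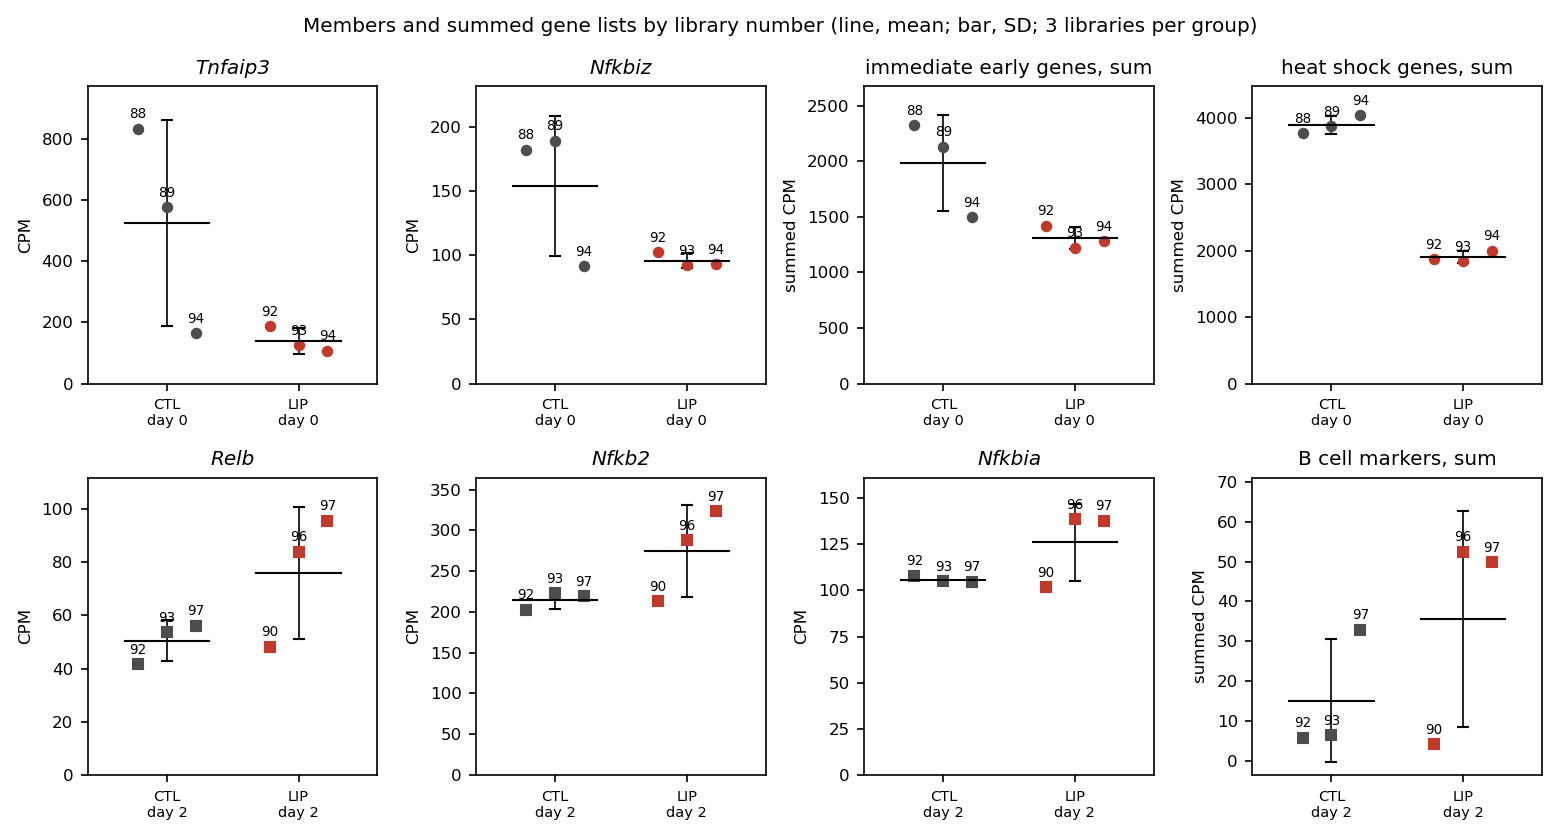
CPM of single members and summed CPM of gene lists (vertical axes) in every library, labelled by its number, with lines for the mean and bars for the SD of 3 libraries: Tnfaip3, Nfkbiz, 17 immediate early genes and 12 heat shock genes on day 0 (top), and Relb, Nfkb2, Nfkbia and 10 B cell markers on day 2 (bottom). CTL 94 lies near the LIP libraries in the first 3 upper panels and with CTL 88 and 89 for the heat shock genes, and LIP 90 lies below LIP 96 and 97 in all 4 lower panels.

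The remaining members had wide intervals on day 2. Log2 fold changes of LIP over CTL were 0.0030 for Nfkb1 (95% interval -0.37 to 0.38), -0.20 for Rel (-0.64 to 0.23), -0.17 for Nfkbib (-0.56 to 0.23) and 0.25 for Nfkbie (-0.14 to 0.64). They were -0.28 for Nfkbid (-0.75 to 0.18), 0.025 for Nfkbiz (-0.38 to 0.43) and 0.24 for Tnfaip3 (-0.26 to 0.73).

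Across the pathway lists on day 2, no gene passed the adjusted threshold. Map3k7 was at 233 ± 9.40 CPM in CTL and 141 ± 30.1 in LIP (log2 fold change -0.73, SE 0.15, unadjusted p = 0.00121, adjusted p = 0.12), and N4bp1, an inhibitor of NF-κB signalling, at 135 ± 5.10 and 91.0 ± 15.7 (adjusted p = 0.135). Malt1 (-0.49) was lower and Birc2 (0.45) higher at an unadjusted p under 0.05. Among the 28 targets 4 were higher and 3 lower at that level, with Csf1 (-1.83) and Il2 (-1.47) lowest and Ccl5 (1.79) and Csf2 (1.36) highest. The LIP libraries were widely spread for Csf1 (62.3 ± 52.3 CPM) and Il2 (22.7 ± 20.1). Csf2 was low in both groups, at 0.75 ± 0.040 CPM in CTL and 1.95 ± 0.52 in LIP.

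Likeness between genes was described by Pearson's r of log2 CPM over the 12 libraries after each day's mean was subtracted. Among the members, r was highest for Nfkbiz with Tnfaip3 (0.90), Nfkbib with Nfkbid (0.85) and Nfkb2 with Relb (0.81), and lowest for Nfkbia with Nfkbid (-0.52). Over all genes, Tnfaip3 was nearest to Zrsr1 (0.96) and to the immediate early gene Dusp1 (0.95), Nfkbiz to Itga10 (0.96), Nfkbia to Zfp277 (0.92) and Relb to Maf1 (0.95) and Nfkbil1 (0.94). Nfkb2 was nearest to Prkcsh and Slc1a5 (both 0.96), Nfkb1 to Myl12b (0.95), Rel to Tnc (0.90), Nfkbib to Lig3 (0.93), Nfkbie to Tmem11 (0.97) and Nfkbid to Tacc2 (0.96). The points share their libraries, CTL 94 of day 0 and LIP 90 of day 2 among them, and no test was made of these values.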

How the data were processed

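The 12 libraries of CD4+ T cell RNA were assigned to their groups by sample title. Per the labels and the methods, the authors trimmed reads with Trimmomatic (0.38 in the submitters' notes, another version in the methods) after FastQC 0.11.9, used HISAT2 and GRCm39, and deposited expected counts per gene from RSEM 1.3.0 with Bowtie2, without normalization. The authors also deposited tables of normalized signal (CPM) per library with their own fold changes and p-values. These tables gave only the symbols of 15174 genes here, and 2 columns of libraries without a label were not used.

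Expected counts were rounded (73267 were not whole) and tested with edgeR 4.0.16 (R 4.3.3): filterByExpr, TMM, quasi-likelihood test, Benjamini-Hochberg adjustment over all genes tested. LIP was compared with CTL on the 6 libraries of each day, and the days and the interaction were tested on all 12. The median over all genes and the percentage of genes called are given beside the members. Alternatives were RLE and no normalization, DESeq2 1.42.0, no filter, at least 10 counts in every library, other sets of libraries in the fit, each library left out in turn and, added after the data were seen, the library number as a block and per-kb shares over exon-union lengths. GENCODE M39 gave positions and lengths for 54749 records. Scripts ran in Python 3.11.15 with numpy 2.4.6, pandas 2.3.3 and matplotlib 3.10.9, and the fits were tested on simulated data. Named were all 10 members, Rela, Bcl3, in each list up to 2 genes with the highest and 2 with the lowest called fold change, of which not all are printed, and for each member the 2 genes most like it. The 10 members and all lists were chosen with earlier results of these data known. Protein sequences were not used here, and 1 gene of the lists is not reported here.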

Additional observations from a re-analysis of the deposited data

How the results depend on the processing

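Of 680 log2 fold changes of members under an alternative, 624 kept their direction and side of the threshold, 10 lost a call, 14 gained one and 32 changed sign, 0 of them among called values. In LIP against CTL on day 0, the number of genes called was 60, and 202 with DESeq2, 645 without a filter (2 members), 12 with all libraries in 1 fit and 13 to 658 with a library left out (0 to 2 members). On day 2 it was 0, and 1 with no normalization or with at least 10 counts, 485 with DESeq2, 662 without a filter, 775 with all libraries in 1 fit and 0 to 2014 with a library left out (0 to 3 members). For the interaction it was 8, and 97 with no normalization, 520 with DESeq2, 815 without a filter (2 members) and 1 to 1596 with a library left out (0 to 3 members). The highest numbers came without CTL 94 (day 0) and without LIP 90 (day 2 and the interaction). For day 2 against day 0, leaving out a library gave 7 to 8 members in CTL and 8 to 9 in LIP. The causes of these changes were not tested.

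The split of calls moved with no normalization, from 5456 higher and 5220 lower to 4621 and 6272 in CTL and from 5665 and 5446 to 4138 and 7285 in LIP (day 2 against day 0). Signs that turned with no normalization, none of them called, were those of Nfkb1 (0.020), Rel (0.046), Nfkbie (0.0095) and Nfkbid (0.061) on day 0, Nfkb1 (-0.086) and Nfkbiz (-0.063) on day 2, Nfkbia (-0.049) and Nfkbie (-0.10) between days in CTL, and Nfkb1 (-0.11) in the interaction. With at least 10 counts Nfkb1 was at -0.0062 on day 2. With a library left out, the uncalled values that turned ranged from -0.072 to 0.054 (Rel), -0.17 to 0.033 (Nfkbib) and -0.12 to 0.20 (Nfkbid) on day 0, from -0.13 to 0.092 (Nfkb1) and -0.11 to 0.22 (Nfkbiz) on day 2, from -0.049 to 0.18 (Nfkbie, CTL) and -0.27 to 0.17 (Tnfaip3, LIP) between days, and from -0.068 to 0.15 (Nfkb1) and -0.18 to 0.071 (Nfkbib) in the interaction.

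For LIP against CTL within a day, no paired analysis was possible because the groups compared share fewer than 2 library numbers. Over all 12 libraries 4 numbers occur in a pair of groups, and the deviations of such libraries from their group means had r of -0.055 to 0.104 over genes. With 3 libraries per group, these values cannot settle whether libraries of the same number share more than the number. A fit with the number as a replicate block, chosen after seeing the data, left 1 residual degree of freedom. It called 6847 genes between days in CTL (7 members, without Nfkbid), 6884 in LIP (8 members, without Nfkbiz), and 550 in the interaction, with Tnfaip3 as the 1 member (log2 difference 1.29, edgeR adjusted p = 0.0017, against 0.112 without the block). Uncalled values that turned were Tnfaip3 in LIP (0.37) and, in the interaction, Rel (0.57) and Nfkbib (0.022). Between days in CTL, the block moved Tnfaip3 from -2.27 to -0.93 and Nfkbiz from -1.61 to -0.87, both still called. In LIP it moved Rel the other way, from 0.97 to 1.62.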
